A study of Mus musculus with 12 samples.

Results

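Described here are 40 genes, chosen by name with earlier results of these data known, that make ribosomes or are known targets of the transcription factor MYC. They comprise snoRNP proteins, RNA polymerase I subunits, assembly factors of both ribosomal subunits, abundant nucleolar proteins and the polyamine enzymes Odc1 and Srm. All 40 names matched 1 row each of the count table, which holds 55492 features, and all 40 were among the 15052 genes with enough counts to be tested. RNA-seq libraries were made from total RNA of CCN6KOT, primary cells of a mouse breast tumour labelled spindle metaplastic, grown in DMEM/F12 with serum. The 12 libraries form 4 groups of 3. Vector cells carried the control lentivirus, and DNTCF4 cells carried a dominant negative construct of TCF4, the DNA-binding partner of beta-catenin in Wnt signalling. Their sample titles read PPGS-Vector and DNTCF4-Vector, and PPGS is not expanded. In the DNTCF4 titles Vector stands where the other titles name EZH2 or SET, so these cells may also carry an empty vector. A second construct here means EZH2 or SET. DNTCF4_EZH2 and DNTCF4_SET cells carried DNTCF4 plus a second construct meant as a rescue, labelled EZH2, the methyltransferase of Polycomb complex PRC2, or SET, which the labels do not expand. All groups share the tumour origin, lentiviral delivery and puromycin selection. The promoters that drive the constructs are not given in the sources used here, nor whether a group's libraries represent independent cultures. The p-values therefore reflect library-to-library spread alone, and that spread may be technical.

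Ribosomes are assembled mainly in the nucleolus. There RNA polymerase I transcribes the ribosomal RNA precursor, small nucleolar RNPs (snoRNPs) guide its methylation and pseudouridylation, and a large set of assembly factors cuts, folds and exports the small and large subunits. MYC, itself a classic Wnt target, binds E-box sequences at many of these genes and at Odc1, and their transcripts are widely read as a sign of growth activity in tumour cells.

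The members carried 5391 ± 41.4 CPM (counts scaled to a common library size) in Vector and 5338 ± 169 CPM in DNTCF4 when all 40 were summed, against 4204 ± 29.0 CPM in DNTCF4_EZH2 and 4281 ± 42.4 CPM in DNTCF4_SET (mean ± SD, n = 3 per group). The sum in DNTCF4 was therefore 99.0% of that in Vector, and the sums with EZH2 and SET were 78.0% and 79.4% of it. The lowest Vector or DNTCF4 library stood at 5208 CPM and the highest library with a second construct at 4307 CPM, so the members as a pool were lower in each of the 6 libraries that carried a second construct. Ncl, Odc1 and Npm1, the 3 most abundant members, made up 41.8% of the pool in Vector and 47.0% in DNTCF4. Without them the sums were 3137 ± 49.6, 2827 ± 19.0, 2381 ± 4.66 and 2319 ± 13.6 CPM in Vector, DNTCF4, DNTCF4_EZH2 and DNTCF4_SET. The DNTCF4 sum over the other 37 members was thus 90.1% of the Vector sum, while the 3 abundant transcripts together stood at 111% of it. CPM is a share of each library's reads. In bulk RNA, fewer cells expressing a gene and less RNA per cell cannot be told apart.

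**Figure D1:**
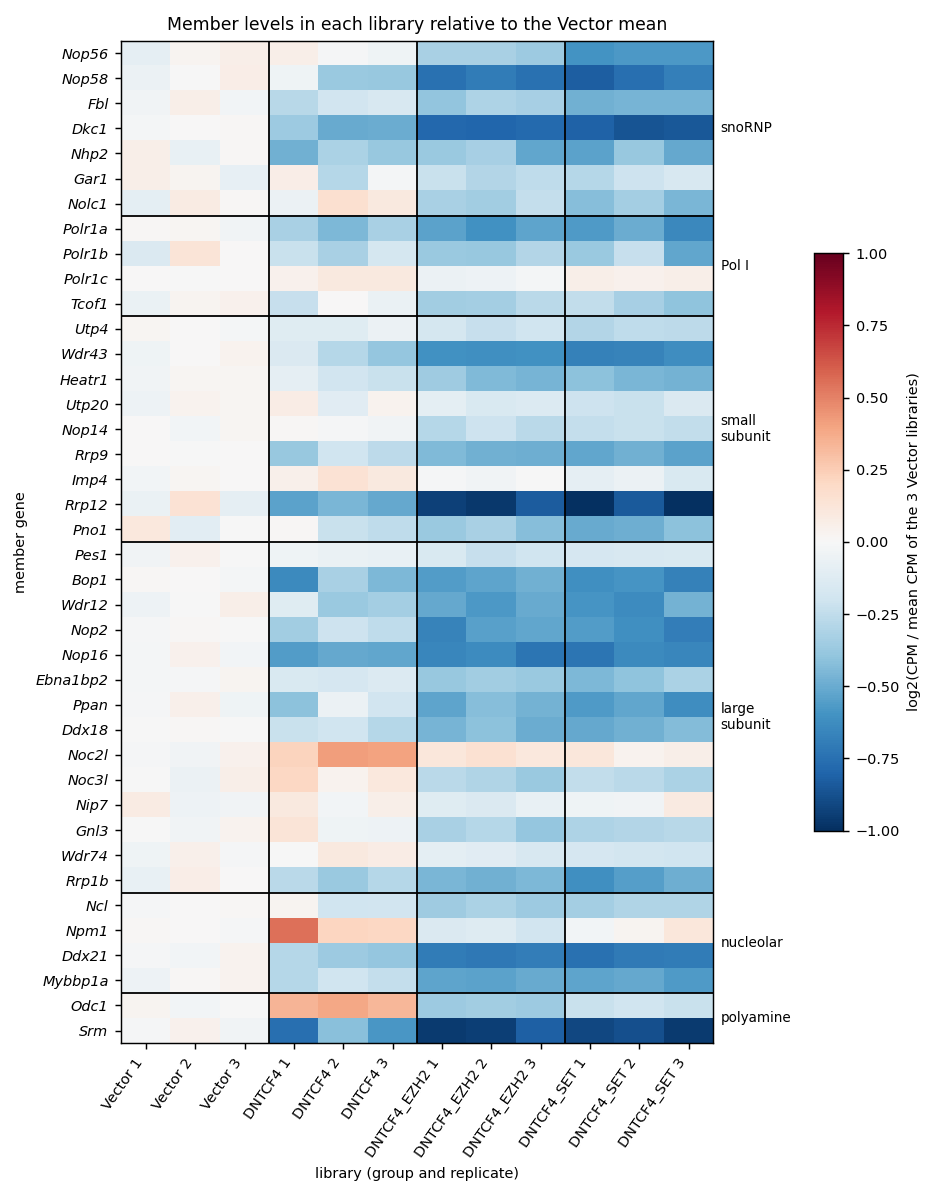
Level of each of the 40 members (rows, grouped by role) in each of the 12 libraries (columns), as log2 of its CPM over the mean CPM of the 3 Vector libraries; red is higher and blue is lower than the Vector mean. Blue spreads over most rows in the 6 libraries with a second construct, where 36 to 39 members lay below the Vector mean in each library, against 26 to 31 in the DNTCF4 libraries. The same count was not made over all genes.

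Of the 40 members, 30 had all 6 libraries with a second construct below all 6 libraries without one. Across all genes tested 5.76% did so, and 6.36% lay the other way. The group with the highest mean was Vector for 28 members and DNTCF4 for 12, and neither second-construct group was the highest for any. The lowest mean was in DNTCF4_SET for 29 members, in DNTCF4_EZH2 for 10 and in Vector for 1, Noc2l. Replicates lay close together, with a median coefficient of variation over the members of 5.06% in DNTCF4 and of 2.80% (Vector), 2.58% (EZH2) and 2.90% (SET) elsewhere.

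DNTCF4 replicate 1 stood apart from its group. The chi-square per degree of freedom over genes was 20.7 and 13.1 between it and the other DNTCF4 libraries, and 3.33 between those. It was the highest DNTCF4 library for 19 members and the lowest for 17. DNTCF4_EZH2 replicates 1 and 2 also differed (16.3). Library totals ran from 23597545 to 33999982 counts, and 3 counts correspond to 0.0882 to 0.127 CPM. The mitochondrial share was 1.73% to 1.74% in Vector and 1.56% to 1.60% in DNTCF4. With EZH2 and SET it was 1.63% to 1.67% and 1.38% to 1.43%. Olfr and Vmn receptor genes with counts numbered 550 to 774, 69 to 81, 241 to 311 and 325 to 472 in that order. Neither measure overlapped between groups, and the part of such library differences in the member changes was not tested. Krt8 (79.7 to 89.6 CPM), Krt18 (227 to 262 CPM) and Vim (613 to 1062 CPM) were present in every library, whereas Epcam and Cdh1 did not exceed 1.15 CPM, Krt5 was at 0 in 11 libraries and Twist1 in all 12. The 8 mesenchymal markers summed to 11215 to 12164 CPM in Vector, 4792 to 5320 in DNTCF4, 6172 to 6313 in DNTCF4_EZH2 and 5671 to 6129 in DNTCF4_SET. Most of each sum was Fn1, at 3557 to 9066 CPM over the 12 libraries, so the sums do not describe each marker. Zeb1, for example, ran only from 71.4 to 94.9 CPM. The part of these markers in the member changes was not tested. The 7 immune markers summed to at most 2.7 CPM, and Hba-a1 and Hbb-bs were at 0 in all libraries.

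Promoter windows from RefSeq (GRCm38.p6, 250 bases before to 50 bases after an annotated start) were found for 34 of the 40 members, 38 windows in all. Bop1, Srm, Fbl, Tcof1, Npm1 and Rrp12 were not matched. The canonical MYC-binding E-box CACGTG, a palindrome that reads the same on both strands, was in 8 of the 38 windows (21.05%), 1 in each of Imp4, Nop2, Utp4, Utp20, Pes1, Pno1, Mybbp1a and Wdr43. Of all 32851 RefSeq windows 7.15% held it, and of the 13718 windows of genes tested here 9.644% did. The windows of 4 of these genes, chosen after their values were seen, are printed to show the E-box at members lower in both second-construct groups than in DNTCF4. Utp4 and Pes1 were called lower in both too, but Imp4 and Utp20 with SET only. Most members whose windows lack the E-box were also called lower in both, so the choice shows no link between E-box and fall. That of Odc1, the member with the largest fall on adding EZH2, is printed beside them because it lacks the motif. Capitals mark the E-box, whose first base is base 18 counted from the start in Wdr43 (chr17:71615965-71616264, + strand), lies 60 bases before it in Nop2 (chr6:125131633-125131932, + strand), is base 41 in Mybbp1a (chr11:72441077-72441376, + strand) and base 38 in Pno1 (chr11:17211540-17211839, - strand). The Odc1 window is chr12:17544623-17544922, + strand. Each window covers the upstream flank and the first bases of the annotated transcript. E-boxes outside the windows, such as in introns, were not looked for, so a gene whose window lacks the motif may hold it elsewhere.
Wdr43: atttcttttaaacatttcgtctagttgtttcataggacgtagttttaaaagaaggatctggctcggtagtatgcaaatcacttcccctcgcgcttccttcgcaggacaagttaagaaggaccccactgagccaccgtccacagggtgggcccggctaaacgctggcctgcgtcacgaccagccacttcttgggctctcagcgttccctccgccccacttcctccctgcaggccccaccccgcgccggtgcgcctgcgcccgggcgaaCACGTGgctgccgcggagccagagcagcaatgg
Nop2: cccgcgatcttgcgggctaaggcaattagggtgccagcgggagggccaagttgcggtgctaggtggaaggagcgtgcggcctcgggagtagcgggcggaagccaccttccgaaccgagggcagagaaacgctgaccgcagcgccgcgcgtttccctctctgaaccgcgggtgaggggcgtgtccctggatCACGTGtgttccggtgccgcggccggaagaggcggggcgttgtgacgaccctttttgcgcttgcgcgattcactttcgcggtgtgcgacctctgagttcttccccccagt
Mybbp1a: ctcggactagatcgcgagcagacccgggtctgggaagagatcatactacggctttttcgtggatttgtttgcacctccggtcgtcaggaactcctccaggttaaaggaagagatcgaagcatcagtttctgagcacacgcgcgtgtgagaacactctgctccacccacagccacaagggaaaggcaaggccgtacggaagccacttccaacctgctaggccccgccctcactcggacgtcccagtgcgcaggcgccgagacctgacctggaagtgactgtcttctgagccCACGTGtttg
Pno1: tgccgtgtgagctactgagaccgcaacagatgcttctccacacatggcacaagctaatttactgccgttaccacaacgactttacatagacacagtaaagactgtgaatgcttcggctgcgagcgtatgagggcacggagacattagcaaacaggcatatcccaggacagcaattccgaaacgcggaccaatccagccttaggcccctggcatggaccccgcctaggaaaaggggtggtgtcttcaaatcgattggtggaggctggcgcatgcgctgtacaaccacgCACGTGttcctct
Odc1: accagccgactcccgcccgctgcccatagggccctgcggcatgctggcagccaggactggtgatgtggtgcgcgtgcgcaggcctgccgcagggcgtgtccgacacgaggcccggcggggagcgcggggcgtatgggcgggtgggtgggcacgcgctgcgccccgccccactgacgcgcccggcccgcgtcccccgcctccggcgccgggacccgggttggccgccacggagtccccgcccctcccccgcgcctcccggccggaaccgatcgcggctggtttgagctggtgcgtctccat
A core TCF site (CTTTGAT or CTTTGAA, either strand) was in 1 of the 38 member windows (2.632%), that of Ncl, against 8.651% of all windows and 5.978% of those of genes tested. The ETS core CCGGAAG (either strand) was in 14 of 38 (36.84%), against 8.858% and 16.49%, with 2 windows of Noc2l and 1 in each of 12 other genes, among them Nop2 and Utp4, which hold an E-box too. A match to these letters is a description of the window and says nothing of binding.

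DNTCF4 against Vector compared these genes between cells with and without the dominant negative TCF4 construct. Whether TCF4 activity was blocked was not tested here. With edgeR's quasi-likelihood test and Benjamini-Hochberg adjustment over all genes, 22 members fell, 3 rose and 15 were not called at an adjusted p of 0.05. In this comparison 28% of all genes tested were called lower and 29.5% higher. The share of members called lower was 55%, above that background, and the share called higher was 7.5%. Because the list was chosen with earlier results of these data known, this excess describes the list and is not independent evidence. The median change of the members was -0.16 (log2), beside 0.01 over all genes. The 3 that rose were Odc1, Noc2l and Npm1. The largest falls were in Srm, Nop16, Rrp12 and Bop1.

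DNTCF4_EZH2 against DNTCF4 asked whether the EZH2 construct moved the members back. None was called higher, 34 fell and 6 were not called, where 13% of all genes tested rose and 12.5% fell. All 40 changes were below 0, with a median of -0.22, beside -0.00047 over all genes. DNTCF4_SET against DNTCF4 gave 0 higher, 34 lower and 6 not called, where 12.7% of all genes rose and 13.3% fell, with all 40 below 0 and a median of -0.25 (all genes -0.0040). These counts of 0 higher members stayed 0 with the DESeq2 Wald test and with limma on the rlog values. An unadjusted p under 0.05 also gave 0, which was fixed in advance because all 40 changes were below 0. Both comparisons use the same 3 DNTCF4 libraries, so their values are given side by side and are not independent of each other or of DNTCF4 against Vector. Of the 22 members lower in DNTCF4 than in Vector, 19 fell further in both second-construct groups, and the 3 that were higher in DNTCF4 also fell in both. A further 10 members were called lower with both second constructs and were not called in DNTCF4 against Vector. Gar1 was called in none of these 3 comparisons. The share of all genes with each such joint pattern was not computed, so these joint counts describe the members only.

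Measured from Vector directly, 35 members were lower and 1 higher in DNTCF4_EZH2 (29% and 28.7% of all genes), with a median of -0.36, and 35 were lower and 0 higher in DNTCF4_SET (29.9% and 28.1%), with a median of -0.45. The count of 0 became 1 with limma on the rlog values and stayed 0 with DESeq2 and at an unadjusted p under 0.05. DNTCF4_EZH2 against DNTCF4_SET separated the members little, with 1 higher, 1 lower and 38 not called, where 3% of all genes rose and 2.17% fell, and a median of 0.03.

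**Figure D2:**
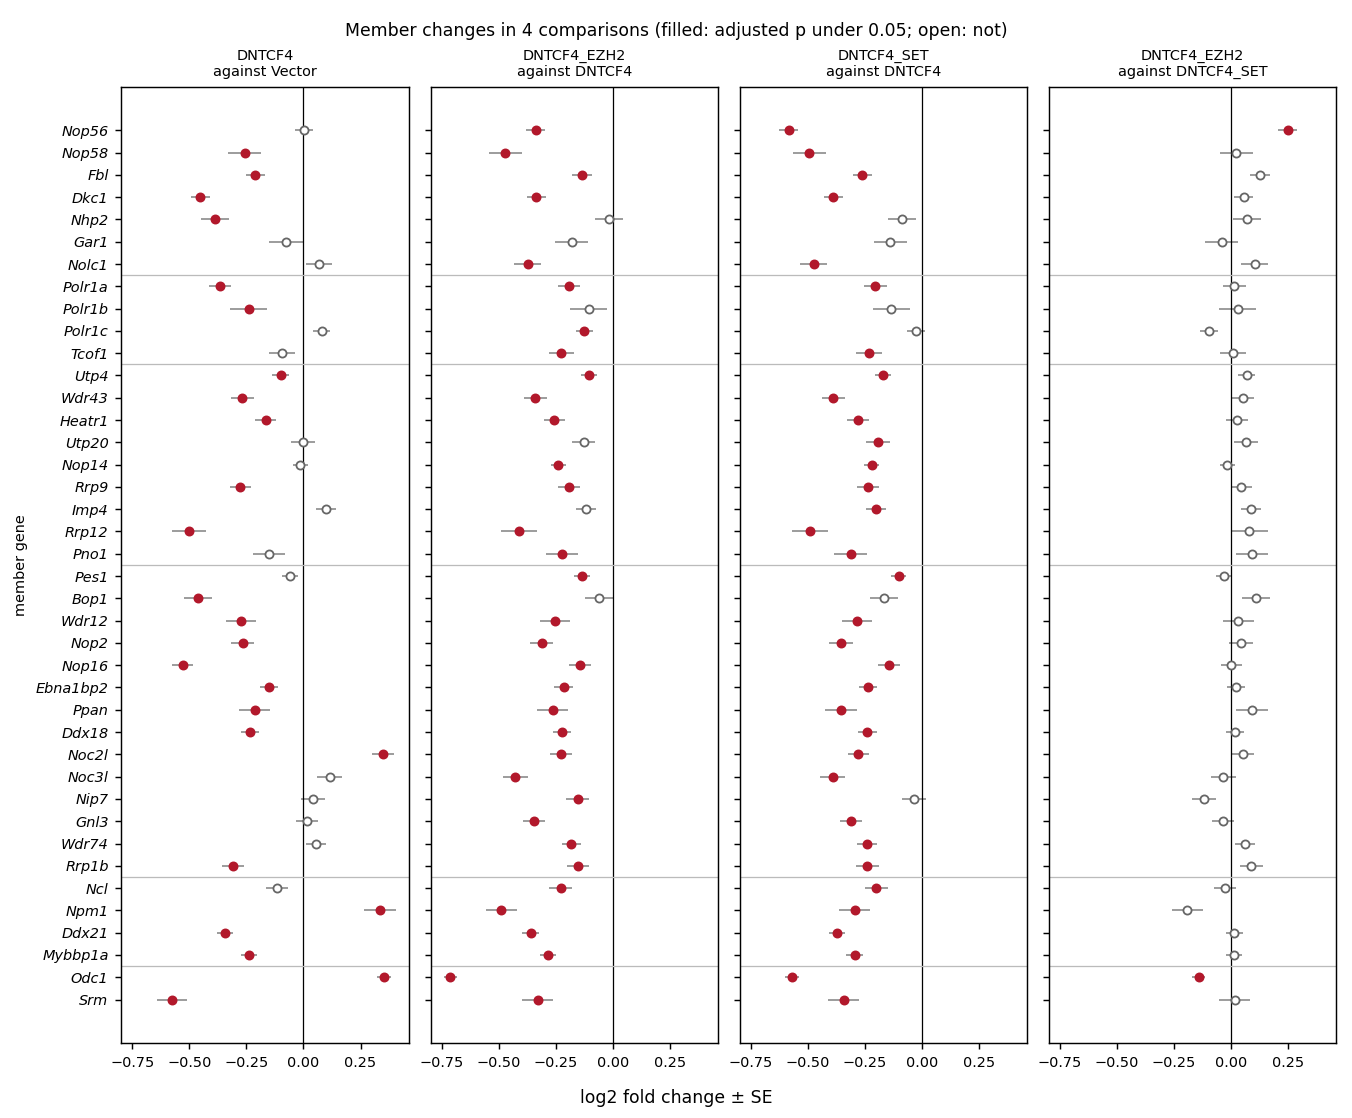
Change of each member (rows, in the order of the roles) in 4 comparisons, as log2 fold change ± SE on the horizontal axis; filled points passed an adjusted p of 0.05 and open points did not. Points lie on both sides of 0 for DNTCF4 against Vector, all 40 lie left of 0 for each second construct against DNTCF4, and most lie near 0 for DNTCF4_EZH2 against DNTCF4_SET.

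Among the 7 snoRNP proteins and their chaperone, 4 fell in DNTCF4 against Vector, 5 fell with each second construct against DNTCF4, and 7 of 7 were lower in each second-construct group than in Vector. The counts of this and the other roles are read beside all genes, of which 28% fell and 29.5% rose with DNTCF4. Against DNTCF4, 12.5% of all genes fell with EZH2 and 13.3% with SET. Against Vector, 29% and 29.9% were lower. Nop56, a core protein of the box C/D snoRNPs that carry the RNA methylase, stood at 164, 177 and 181 CPM in Vector and at 181, 172 and 169 CPM in DNTCF4. It stood at 139, 139 and 135 CPM in DNTCF4_EZH2 and at 115, 117 and 117 CPM in DNTCF4_SET. The groups without a second construct overlapped, while EZH2 lay below both of them and SET below EZH2 with no overlap. Nop56 did not pass the test in DNTCF4 against Vector (log2 0.00 ± 0.041 SE, adjusted p = 0.958), fell 1.26-fold with EZH2 (-0.34 ± 0.041, adjusted p = 2.43e-05) and 1.5-fold with SET (-0.58 ± 0.041, adjusted p = 1.11e-07), and was the 1 member higher in DNTCF4_EZH2 than in DNTCF4_SET (0.25 ± 0.041, 1.19-fold, adjusted p = 0.0026).

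Nop58, the partner of Nop56 in the same particles, stood at 133, 139 and 145 CPM in Vector and at 135, 107 and 107 CPM in DNTCF4, where replicate 1 overlapped the Vector range. It stood at 83.1, 85.6 and 83.0 CPM with EZH2 and at 78.7, 82.5 and 86.5 CPM with SET, below all libraries of the other groups. The changes were -0.26 ± 0.072 in DNTCF4 against Vector (adjusted p = 0.0064), -0.47 ± 0.073 with EZH2 (adjusted p = 0.000214) and -0.49 ± 0.073 with SET (adjusted p = 0.000166). Without DNTCF4 replicate 1 the first was -0.38 and the second -0.35.

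Dkc1, the pseudouridine synthase of the box H/ACA snoRNPs and of telomerase, stood at 83.3, 84.9 and 85.2 CPM in Vector, at 65.7, 59.6 and 60.0 CPM in DNTCF4, at 49.0, 48.6 and 49.2 CPM in DNTCF4_EZH2 and at 48.2, 46.4 and 46.9 CPM in DNTCF4_SET. The groups came down in that order, and no 2 of the 4 overlapped. Dkc1 fell 1.37-fold in DNTCF4 against Vector (-0.45 ± 0.042, adjusted p = 2.65e-07), a further 1.26-fold with EZH2 and 1.31-fold with SET, and the last 2 groups did not differ beyond the test (0.05 ± 0.043, adjusted p = 0.556). Fbl, the methyltransferase fibrillarin, took the same downward order, from 89.9 ± 3.40 CPM in Vector to 77.7 ± 3.25, 70.8 ± 2.12 and 64.8 ± 0.495 CPM.

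Nolc1, a chaperone of snoRNPs, stood at 126 ± 7.91 CPM in Vector and 132 ± 10.1 in DNTCF4, which did not pass the test (adjusted p = 0.333), and fell to 102 ± 4.10 with EZH2 and 95.4 ± 4.11 with SET. Nhp2, a H/ACA protein, showed the other pattern: its mean was 68.3 ± 3.15 CPM for Vector and 52.2 ± 2.96 CPM for DNTCF4 (-0.39 ± 0.061, adjusted p = 5.81e-05), and it stood at 51.5 ± 3.39 and 49.1 ± 2.95 CPM with EZH2 and SET, neither of them called against DNTCF4 (adjusted p = 0.870 and 0.325). Gar1, also of the H/ACA particle, passed the test in DNTCF4_EZH2 and DNTCF4_SET against Vector (-0.26 and -0.22). The second of these calls was lost without Vector replicate 1 or 2 or DNTCF4_SET replicate 1 (adjusted p = 0.0917, 0.0622 and 0.0992).

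Of the 4 RNA polymerase I genes, 2 fell in DNTCF4 against Vector, 3 with EZH2 and 2 with SET against DNTCF4. Polr1a, the largest catalytic subunit, averaged 61.0 ± 1.3 CPM for Vector and 47.4 ± 2.41 CPM for DNTCF4 (-0.36 ± 0.049, adjusted p = 1.40e-05), then 41.5 ± 1.16 and 41.2 ± 2.05 CPM with EZH2 and SET (-0.19 and -0.20 against DNTCF4). Polr1b, the second subunit, fell in DNTCF4 against Vector (-0.24 ± 0.080, adjusted p = 0.0185) and did not pass the test with either second construct against DNTCF4 (-0.11 and -0.13). Polr1c, a subunit that RNA polymerase III shares, stood between 45.3 and 50.6 CPM in all 12 libraries and was called once, lower with EZH2 against DNTCF4 (-0.12 ± 0.037, adjusted p = 0.0242).

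Tcof1, the nucleolar protein treacle that aids polymerase I, stood at 157, 168 and 170 CPM in Vector, at 140, 165 and 157 CPM in DNTCF4, at 129, 130 and 136 CPM in DNTCF4_EZH2 and at 139, 131 and 125 CPM in DNTCF4_SET. Vector and DNTCF4 overlapped, and the groups with a second construct lay below both and overlapped each other. The change with EZH2 was -0.22 ± 0.056 (adjusted p = 0.00816) and with SET -0.23 ± 0.056 (adjusted p = 0.00684).

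The 9 small subunit factors gave 5 falls in DNTCF4 against Vector, 7 with EZH2 and 9 with SET against DNTCF4. Rrp12, needed for export and maturation of pre-ribosomes, was among the members with the largest falls throughout. It stood at 24.5, 28.2 and 24 CPM in Vector, at 17.7, 18.6 and 18.0 CPM in DNTCF4, at 13.4, 13.1 and 14.3 CPM in DNTCF4_EZH2 and at 12.4, 14.3 and 12 CPM in DNTCF4_SET. Vector, DNTCF4 and the pair with a second construct did not overlap, and that pair overlapped each other. Rrp12 fell 1.42-fold in DNTCF4 against Vector (-0.50 ± 0.075, adjusted p = 3.81e-05), and in DNTCF4_SET it was 1.99-fold below Vector (-0.99 ± 0.077, adjusted p = 3.16e-08).

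Nop14, a scaffold of the small subunit processome and the most abundant member of this role, stood at 151, 148 and 152 CPM in Vector and at 151, 149 and 147 CPM in DNTCF4, which overlapped (-0.01 ± 0.033, adjusted p = 0.755). It then stood at 123, 130 and 125 CPM with EZH2 and at 128, 129 and 127 CPM with SET, below every library of the first 2 groups (-0.24 ± 0.033, adjusted p = 9.26e-05, and -0.22 ± 0.033, adjusted p = 0.000212). Wdr43, a U3 processome protein whose promoter window is printed above, came down in 2 steps, from 145 ± 4.09 CPM in Vector to 121 ± 10.3 in DNTCF4 and to 95.5 ± 0.360 and 92.3 ± 1.85 CPM with EZH2 and SET. Heatr1 and Rrp9, of the same processome, were also called lower in all 3 of these comparisons, by 0.17 to 0.28 on the log2 scale.

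Pno1, which holds the end of the small subunit RNA before its last cut, was not called in DNTCF4 against Vector (adjusted p = 0.0777) and fell with SET (-0.31 ± 0.071, adjusted p = 0.00467). Utp20 and Imp4 were called lower with SET against DNTCF4 (-0.19 and -0.20) and not with EZH2 (-0.13 and -0.12), while the direct comparison of EZH2 with SET called neither (adjusted p = 0.567 and 0.307). Imp4 was not called in either second-construct group against Vector. Utp4, a U3 processome protein, was called at small changes, -0.10 in DNTCF4 against Vector, -0.10 with EZH2 and -0.17 with SET.

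The 14 large subunit factors gave 8 falls and 1 rise in DNTCF4 against Vector, 13 falls with EZH2 and 12 with SET. Nop16, a nucleolar protein named as a MYC target, stood at 46.2, 48.3 and 46.1 CPM in Vector and at 31.8, 32.9 and 32.8 CPM in DNTCF4. It stood at 29.8, 30.3 and 28.2 CPM in DNTCF4_EZH2 and at 28.3, 30.1 and 29.9 CPM in DNTCF4_SET. Vector lay above the other 3 groups, DNTCF4 lay above both second-construct groups, and those overlapped. Most of its fall lay in the first step (-0.53 ± 0.046, 1.44-fold, adjusted p = 1.27e-07), with a smaller one after it (-0.14 with each construct, adjusted p = 0.0356 and 0.0355). Bop1, which with Pes1 and Wdr12 forms the PeBoW complex, stood at 74.4, 74.0 and 72.5 CPM in Vector, at 47.4, 59.0 and 53.9 CPM in DNTCF4, at 50.1, 51.1 and 52.9 CPM in DNTCF4_EZH2 and at 48.3, 48.9 and 46.0 CPM in DNTCF4_SET. DNTCF4 lay below Vector without overlap (-0.46 ± 0.061, adjusted p = 1.14e-05) and spanned the range of both second-construct groups except for 1 SET library below it; neither was called against it (adjusted p = 0.527 and 0.0617).

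The other PeBoW subunits were Pes1 and Wdr12, which give the complex its name with Bop1. Pes1 stood at 139, 147 and 143 CPM in Vector and at 139, 137 and 136 CPM in DNTCF4 (-0.06 ± 0.035, adjusted p = 0.162), then at 129, 122 and 125 CPM with EZH2 and at 127, 128 and 128 CPM with SET. These last 2 groups lay below the others and overlapped each other (-0.13, adjusted p = 0.00996, and -0.10, adjusted p = 0.0399, against DNTCF4). Wdr12 fell in each step, from 33.2 ± 1.28 to 27.5 ± 2.62 CPM and to 23.0 ± 0.622 and 22.5 ± 1.28 CPM.

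Noc2l, a pre-60S transport factor that also binds histones, rose with DNTCF4. It stood at 98.6, 97.2 and 103 CPM in Vector, at 116, 133 and 131 CPM in DNTCF4, at 107, 111 and 107 CPM in DNTCF4_EZH2 and at 108, 102 and 104 CPM in DNTCF4_SET. DNTCF4 lay above all other libraries, and SET overlapped Vector. The rise was 1.27-fold (0.35 ± 0.048, adjusted p = 1.82e-05), and both second constructs brought lower levels than DNTCF4 (-0.22 ± 0.048, adjusted p = 0.00283, and -0.28 ± 0.048, adjusted p = 0.000598). It was the 1 member called higher in DNTCF4_EZH2 than in Vector (0.12 ± 0.048, adjusted p = 0.0388), a call lost without Vector replicate 1 or 2 or DNTCF4_EZH2 replicate 2 or 3 (adjusted p from 0.0728 to 0.148).

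Noc3l, the related factor, stood at 33.0, 31.8 and 34.4 CPM in Vector, at 38.1, 33.9 and 35.6 CPM in DNTCF4, at 27.4, 26.9 and 25.5 CPM with EZH2 and at 27.9, 27.5 and 26.6 CPM with SET. The first 2 groups overlapped (0.12 ± 0.054, adjusted p = 0.0807), and the last 2 lay below both (-0.43 ± 0.054, adjusted p = 3.70e-05, and -0.39 ± 0.054, adjusted p = 9.47e-05). Gnl3, nucleostemin, was also called lower with both second constructs and not with DNTCF4, with 126 ± 3.07 and 127 ± 9.41 CPM in Vector and DNTCF4 and 100 ± 3.36 and 103 ± 1.14 CPM with EZH2 and SET. Nop2, Ebna1bp2, Ppan, Ddx18 and Rrp1b were called lower in all 3 of these comparisons, by 0.15 to 0.36 on the log2 scale. Wdr74 fell with EZH2 and SET alone (-0.18 and -0.24), and Nip7 with EZH2 alone (-0.15), with the direct comparison calling neither (adjusted p = 0.502 and 0.222).

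The 4 nucleolar proteins gave 2 falls and 1 rise in DNTCF4 against Vector and 4 falls with each second construct. Ncl encodes nucleolin, the most abundant member in CPM. It stood at 1009, 1020 and 1024 CPM in Vector, at 1039, 886 and 891 CPM in DNTCF4, at 794, 819 and 790 CPM in DNTCF4_EZH2 and at 803, 824 and 824 CPM in DNTCF4_SET. DNTCF4 replicate 1 lay above Vector and the other 2 below it, and no second-construct library reached the lowest of these 6. The change in DNTCF4 against Vector was -0.12 ± 0.049 (adjusted p = 0.0526). It was -0.20, then called, without DNTCF4 replicate 1 and -0.07, not called, without DNTCF4 replicate 3, and 5 other settings called it. The change with EZH2 and SET against DNTCF4 was -0.23 ± 0.049 (adjusted p = 0.00296) and -0.20 ± 0.049 (adjusted p = 0.00735). Without DNTCF4 replicate 1 the last 2 were -0.15 and -0.12, both still called.

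Npm1, nucleophosmin, moved the other way in the first step. It stood at 484, 481 and 477 CPM in Vector, at 704, 559 and 556 CPM in DNTCF4, at 436, 440 and 421 CPM in DNTCF4_EZH2 and at 472, 491 and 519 CPM in DNTCF4_SET. DNTCF4 lay above all other libraries, EZH2 lay below all of them, and SET spanned Vector. The rise of 0.33 ± 0.069 (adjusted p = 0.000694) was 0.21 without DNTCF4 replicate 1, and the fall with SET of -0.30 ± 0.069 was -0.18 without it, each still called. With EZH2 the fall was 1.40-fold (-0.49 ± 0.069, adjusted p = 9.86e-05). The difference between EZH2 and SET was not called (-0.19 ± 0.069, adjusted p = 0.133), though the DESeq2 Wald test, the fit with no filter and the fit of only the 6 libraries called it. Npm1 and Odc1 have processed pseudogene copies in the mouse genome, and RSEM shares reads among near-identical genes, so their absolute levels are uncertain.

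Ddx21, an RNA helicase that senses polymerase I and II activity, stood at 151 ± 3.62, 119 ± 4.42, 92.6 ± 0.651 and 91.7 ± 1.52 CPM in Vector, DNTCF4, DNTCF4_EZH2 and DNTCF4_SET. Mybbp1a, a nucleolar MYB-binding protein, stood at 246 ± 7.10, 208 ± 6.31, 171 ± 2.16 and 169 ± 3.19 CPM. Each fell in about equal steps from Vector to DNTCF4 (-0.34 and -0.24) and from DNTCF4 to EZH2 (-0.36 and -0.28) or SET (-0.37 and -0.30).

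The 2 polyamine enzymes parted with DNTCF4 and fell together with the second constructs. Odc1, ornithine decarboxylase, makes putrescine, the first step of the pathway, and is a textbook MYC target. It stood at 772, 741 and 755 CPM in Vector, at 958, 987 and 954 CPM in DNTCF4, at 587, 595 and 588 CPM in DNTCF4_EZH2 and at 649, 658 and 648 CPM in DNTCF4_SET. No 2 of the 4 groups overlapped, with DNTCF4 highest and EZH2 lowest. Odc1 rose 1.28-fold with DNTCF4 (0.35 ± 0.030, adjusted p = 7.95e-08) and then fell 1.64-fold with EZH2 (-0.71 ± 0.030, adjusted p = 1.64e-10) and 1.48-fold with SET (-0.57 ± 0.030, adjusted p = 4.69e-09), ending below Vector in both (-0.36 and -0.21). It was also the 1 member lower in DNTCF4_EZH2 than in DNTCF4_SET (-0.14 ± 0.030, adjusted p = 0.0108). That call was lost without DNTCF4_EZH2 replicate 1 (adjusted p = 0.0651) or 3 (0.0628) or DNTCF4_SET replicate 2 (0.0661).

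Srm, spermidine synthase, works 1 step later. It stood at 80.7, 84.0 and 79.4 CPM in Vector, at 48.2, 60.9 and 54.5 CPM in DNTCF4, at 42.0, 42.3 and 46.1 CPM in DNTCF4_EZH2 and at 43.2, 44.2 and 41.8 CPM in DNTCF4_SET. Vector, DNTCF4 and the pair with a second construct did not overlap, and that pair overlapped each other. Srm had the largest fall of the members in DNTCF4 against Vector (-0.58 ± 0.067, 1.49-fold, adjusted p = 2.86e-06) and fell again with EZH2 (-0.33 ± 0.068) and SET (-0.34 ± 0.068), to 1.87-fold and 1.89-fold below Vector.

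**Figure D3:**
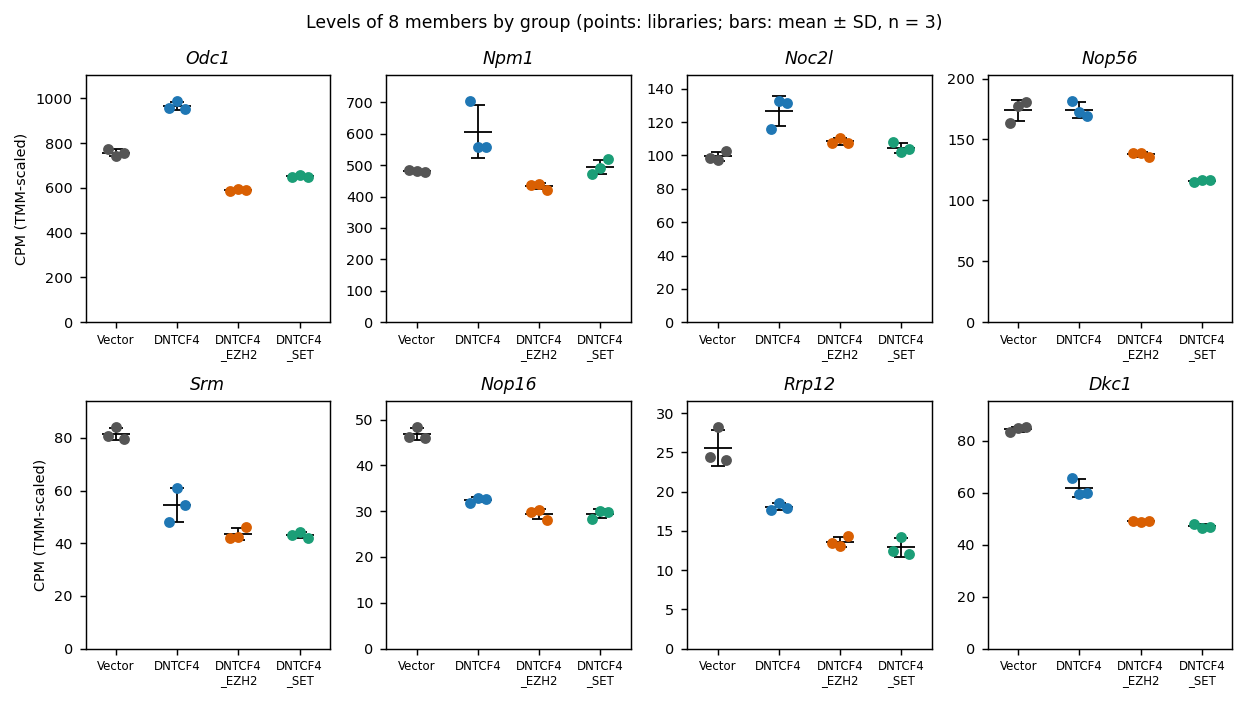
CPM of 8 members in the 4 groups; points are libraries, and bars are the mean ± SD of 3 libraries, with each vertical axis starting at 0. Odc1, Npm1 and Noc2l peak in DNTCF4, Nop56 falls only in the groups with a second construct, Srm, Rrp12 and Dkc1 fall in 2 steps, and Nop16 falls mostly in the first.

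Some calls rested on single libraries. In DNTCF4 against Vector these were Utp4 (lost without Vector replicate 1, adjusted p = 0.146, or 2, 0.0795), Polr1b (lost without Vector replicate 2, 0.118, or DNTCF4 replicate 2, 0.0581) and Ppan (lost without Vector replicate 1, 0.0526, or 2, 0.077). Ppan also moved from -0.21 to -0.13 without DNTCF4 replicate 1. In DNTCF4_EZH2 against DNTCF4, 10 of the 34 calls were lost on leaving out 1 library. Pno1 was among them, at -0.14 without DNTCF4 replicate 1 (adjusted p = 0.0882) and also lost without DNTCF4_EZH2 replicate 1 or 3 (0.0748 and 0.11). Fbl (without DNTCF4 replicate 2 or 3 or DNTCF4_EZH2 replicate 1 or 3) had adjusted p from 0.0704 to 0.159. Nop16 (without DNTCF4 replicate 2 or 3 or DNTCF4_EZH2 replicate 1 or 3) had 0.0771 to 0.156. Rrp1b (without DNTCF4 replicate 3 or any DNTCF4_EZH2 library) had 0.0746 to 0.103. Nip7 (without any of these 6 libraries but DNTCF4 replicate 2) had 0.058 to 0.128. Utp4 (any but DNTCF4 replicate 1) had 0.0544 to 0.205. Polr1c (likewise) had 0.0528 to 0.102. Pes1 and Polr1a were lost without DNTCF4_EZH2 replicate 2 (0.0584 and 0.054), and Ppan without DNTCF4_EZH2 replicate 1 (0.0624). In DNTCF4_SET against DNTCF4 these were Nop16 and Pes1 (without any of the 6 libraries but DNTCF4 replicate 1, 0.0545 to 0.143 and 0.0528 to 0.101) and Utp20 (without DNTCF4 replicate 3, 0.0548, or DNTCF4_SET replicate 2, 0.0551).

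Levels of different genes compare only per length. Per kilobase of the transcript with the longest coding sequence, Vector levels ran from 342 CPM per kb for Odc1, 294 for Npm1 and 124 for Ncl down to 5.89 for Rrp12, 5.48 for Polr1b and 4.10 for Utp20. The value depends on the transcript chosen, which is 8202 bases long for Ncl and 9507 for Nop58. In DNTCF4_EZH2, Odc1 (267 CPM per kb) and Npm1 (265) had near-equal levels, while Odc1 was above Npm1 in DNTCF4 (438 and 371) and near it in DNTCF4_SET (295 and 302).

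Myc itself stood at 242, 248 and 244 CPM in Vector, at 200, 254 and 242 CPM in DNTCF4, at 201, 205 and 206 CPM in DNTCF4_EZH2 and at 193, 194 and 179 CPM in DNTCF4_SET. DNTCF4 replicate 1 lay within the range of the second-construct groups, and the other 2 DNTCF4 libraries lay near Vector. Myc was not called in DNTCF4 against Vector (-0.08, adjusted p = 0.325), where its change was 0.01 without DNTCF4 replicate 1 and -0.15, then called, without DNTCF4 replicate 2. It was lower with SET (-0.30, adjusted p = 0.00355) and with EZH2 (-0.19, adjusted p = 0.0456), the latter lost without DNTCF4 replicate 2 (-0.11) or 3 (-0.15) or any DNTCF4_EZH2 library (adjusted p from 0.101 to 0.184) and under each of 3 other scalings (0.0566 to 0.0621). Without DNTCF4 replicate 1 the EZH2 change was -0.28 and still called. Its dimer partner Max was called in none of these comparisons (56.7 ± 0.343 CPM for Vector and 53.3 ± 1.08 CPM for DNTCF4, adjusted p = 0.107, 0.309 and 0.910).

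Of 12 tested genes of the MYC network, 5 rose with DNTCF4 (41.7%, beside 29.5% of all genes), 0 fell and 7 were not called. Among those that rose were 3 genes of the MXD family, whose proteins compete with MYC for MAX. Mxd1 rose from 25.7 ± 0.601 to 56.9 ± 1.84 CPM (1.15 log2, adjusted p = 1.81e-11), Mxi1 from 127 ± 2.73 to 239 ± 15.8 CPM (0.92, adjusted p = 1.16e-10) and Mxd4 from 51.8 ± 2.02 to 64.9 ± 0.733 CPM (0.32, adjusted p = 2.39e-05). The other 2, named after their values were seen, were Mnt and Mga (0.31 and 0.25). Against DNTCF4, 2 of the 12 rose and 2 fell with EZH2 (16.7% each, beside 13% and 12.5% of all genes). With SET 2 rose and 1 fell (16.7% and 8.33%, beside 12.7% and 13.3%). Mxd1 stayed at 58.7 ± 2.33 and 59.0 ± 1.73 CPM with EZH2 and SET. Mxi1 moved down with EZH2 against DNTCF4 (-0.13). Mxd4 rose again with both second constructs against DNTCF4 (0.18, adjusted p = 0.00793, and 0.34, adjusted p = 6.38e-05). Mycl, a MYC paralogue, was not called with DNTCF4 (0.26, adjusted p = 0.282) and rose with both second constructs, from 1.88 ± 0.246 CPM in DNTCF4 to 3.37 ± 0.506 (0.85, adjusted p = 0.00203) and 3.84 ± 0.655 (1.04, adjusted p = 0.000373).

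Other genes of ribosome assembly were read in the same fits. Over all genes 28% fell and 29.5% rose with DNTCF4. Against DNTCF4, 12.5% fell and 13% rose with EZH2, and 13.3% fell and 12.7% rose with SET. Of 40 other small subunit factors, 17 fell and 3 rose with DNTCF4 (42.5% and 7.5%). With EZH2 and SET against DNTCF4, 20 and 25 fell (50% and 62.5%), and none rose there. Bysl (-0.54, adjusted p = 3.19e-06) and Nol7 (-0.47, adjusted p = 4.13e-06) led the first set, and Tsr1, a GTPase-like factor of the pre-40S particle, fell with EZH2 (-0.40, adjusted p = 7.10e-05) and SET (-0.46, adjusted p = 2.22e-05). Of 42 other large subunit factors, 16 fell and 5 rose with DNTCF4 (38.1% and 11.9%), and 27 fell with each second construct (64.3%). The AAA ATPase Mdn1 was the 1 that rose with SET (0.16, adjusted p = 0.0249). That call was lost without DNTCF4 replicate 2 or any DNTCF4_SET library. Among the 5 that rose with DNTCF4 was Rpf1, a pre-60S factor, from 30.2 ± 1.43 to 71.2 ± 8.41 CPM (1.24, adjusted p = 2.24e-09).

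For 3 other lists the shares in DNTCF4 against Vector are read beside 29.5% higher and 28% lower over all genes. Those with EZH2 against DNTCF4 are read beside 13% higher and 12.5% lower. Those with SET are read beside 12.7% higher and 13.3% lower. Of 17 other RNA polymerase I genes, 6 rose and 4 fell with DNTCF4 (35.3% and 23.5%), with transcription factors of the polymerase among those up (Taf1c 0.35, Ttf1 0.26) and shared polymerase subunits among those down (Polr2l -0.54, Polr2e -0.27). With EZH2 and SET 5 and 4 fell (29.4% and 23.5%) and none rose. Of 11 snoRNP assembly factors tested, 4 fell and 2 rose with DNTCF4 (36.4% and 18.2%). Then 5 fell and 1 rose with EZH2 (45.5% and 9.09%), and 2 fell with SET (18.2%, near the share of all genes). Of 13 exosome and exonuclease genes, 4 fell and 3 rose with DNTCF4 (30.8% and 23.1%). With EZH2 and SET 6 and 9 fell (46.2% and 69.2%) with none rising, led by the exonuclease Dis3 (-0.31, adjusted p = 7.29e-05, and -0.50, adjusted p = 7.31e-07).

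Of 30 MYC targets outside the nucleolus, 16 fell and 3 rose with DNTCF4 (53.3% and 10%, beside 28% and 29.5% of all genes). Then 8 and 15 fell with EZH2 and SET (26.7% and 50%, beside 12.5% and 13.3% of all genes), and none rose. The nucleoside diphosphate kinases Nme1 (-0.75, adjusted p = 3.47e-07) and Nme2 (-0.51, adjusted p = 5.71e-07), near copies of each other that share reads, fell with DNTCF4, and Tfrc, the transferrin receptor, rose (0.74, adjusted p = 6.12e-07). In the rest of the polyamine pathway, 3 of 10 genes rose and 4 fell with DNTCF4 (30% and 40%, beside 29.5% and 28% of all genes). With EZH2 against DNTCF4, 1 rose and 2 fell (10% and 20%, beside 13% and 12.5%). With SET 0 rose and 3 fell (0% and 30%, beside 12.7% and 13.3%). The median change was -0.03 with each, and Paox rose with EZH2 (0.37). Smox, spermine oxidase, rose with DNTCF4 from 143 ± 5.43 to 221 ± 17.3 CPM and fell from there to 146 ± 4.24 with EZH2 and 176 ± 3.68 with SET. Against Vector it was not called with EZH2 (0.03, adjusted p = 0.644) and was higher with SET (0.30, adjusted p = 0.00013), where Odc1 was lower than Vector in both. Sms, spermine synthase, fell in each of the 3 comparisons, as Srm did (means 86.6 ± 1.81, 64.9 ± 8.22, 53.9 ± 1.67 and 53.0 ± 1.73 CPM). Arg2, an arginase that supplies ornithine, rose with DNTCF4 from 1.48 ± 0.197 to 10.5 ± 0.662 CPM (2.83, adjusted p = 1.12e-11) and stood at 10.1 ± 0.522 and 10.7 ± 0.732 CPM afterwards.

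Of 12 cell cycle genes, 8 rose and 1 fell with EZH2 against DNTCF4 (66.7% and 8.33%, beside 13% and 12.5% of all genes). With SET 7 rose and 2 fell (58.3% and 16.7%, beside 12.7% and 13.3%). The proliferation marker Mki67 rose from 121 ± 4.27 CPM in DNTCF4 to 194 ± 4.16 with EZH2 (0.68, adjusted p = 4.81e-09) and 181 ± 5.32 with SET (0.58, adjusted p = 5.73e-08). The median of the 12 lay 0.34 to 0.37 above the Vector mean in the EZH2 libraries and 0.17 to 0.22 above it in the SET libraries, where the median of the 40 members lay 0.35 to 0.38 and 0.43 to 0.47 below it. The part of cell cycle state in the member changes was not tested.

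**Figure D4:**
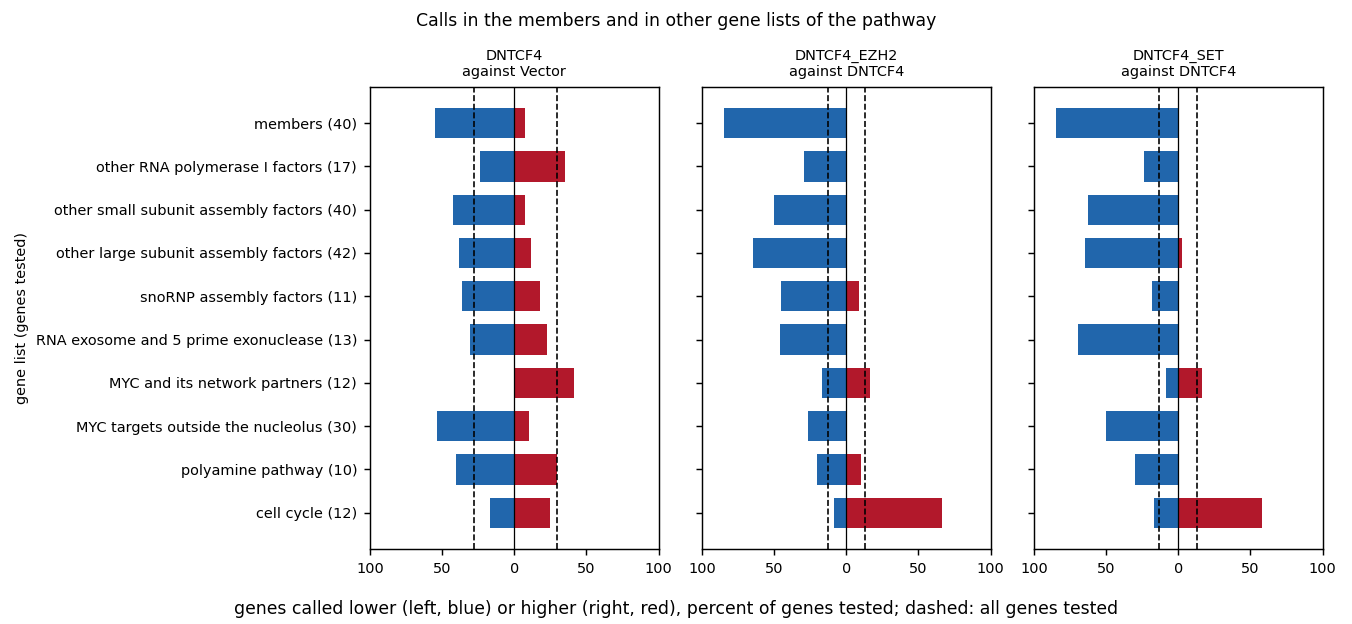
Share of genes called lower (blue, left) or higher (red, right) in the 40 members and in 9 other lists, as percent of the genes tested, for DNTCF4 against Vector and for each second construct against DNTCF4; dashed lines give the same shares over all 15052 genes tested. In the panels for the second constructs the member bar reaches 85% on the lower side, the other subunit assembly lists reach 50% to 64.3%, and the cell cycle list points to the higher side.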

How the data were processed

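Total RNA of 12 CCN6KOT libraries, 3 in each of 4 groups, was sequenced, and groups were taken from the sample titles. The authors deposited expected counts per gene, which are not normalised, and rlog values, which are log2 counts regularised over the 12 libraries. Per the submitters' processing notes the build was GRCm38 and the tools were RSEM 1.3.3, STAR 2.7.8a, Cutadapt 2.3, FastQC 0.11.8 and DESeq2. Their settings and any use of strand are not given in the sources used here. RSEM shares reads among near-identical genes. All deposited expected counts were whole, so rounding altered none.

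Low genes were removed with filterByExpr of edgeR (a minimum of 10 counts and a total of 15), leaving 15052. EdgeR 4.0.16 (R 4.3.3) fitted all 12 libraries at once with TMM scaling and a mean per group (8 residual degrees of freedom). The quasi-likelihood test was two-sided, with Benjamini-Hochberg adjustment over all genes and a threshold of 0.05. CPM values are scaled by the TMM factors, and the SE of a log2 change is its size over the square root of F. The test was tried on simulated counts. Totals of 23597545 to 33999982 counts limit low genes only, and these limits cover counting error only.

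The members and lists were chosen with earlier results of these data known. Every member may be named. Library values are given for up to 4 of the largest called rises and falls per comparison and for the most abundant member of each role, and of each other list the called genes with the smallest p are named, with Myc and Max. Of 190 listed pathway genes 189 matched a row. Alternatives were DESeq2 1.42.0 size factors, upper-quartile scaling, library totals, no filter, the DESeq2 Wald test, limma 3.58.1 on rlog values, only the 6 libraries compared, the replicate number as a block and each library left out. Leaving out DNTCF4 replicate 1 and DNTCF4_EZH2 replicate 1 together was added after seeing the data. Promoter windows are RefSeq's on GRCm38.p6, and transcript lengths come from GENCODE on GRCm38.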

Additional observations from a re-analysis of the deposited data

How the results depend on the processing

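Over all settings, 22 of 25 member calls were kept in DNTCF4 against Vector, 22 of 34 in DNTCF4_EZH2 against DNTCF4, 29 of 34 in DNTCF4_SET against DNTCF4, 1 of 2 between EZH2 and SET, and 33 of 36 and 34 of 35 against Vector, and no called member changed direction. Limma on rlog values called 5 members higher in DNTCF4 against Vector (3 in the fit reported), 0 in DNTCF4_EZH2 against Vector (1) and 1 in DNTCF4_SET against Vector (0). Between EZH2 and SET, 2 members were lower (1 reported) with no filter, with the DESeq2 Wald test, with limma and with only the 6 libraries, and 2 were higher (1 reported) with only the 6 libraries. Upper-quartile scaling and library totals left 0 members higher in DNTCF4_EZH2 against Vector. Leaving out 1 library at a time gave 3 to 6 members higher (6 without DNTCF4 replicate 1) and 20 to 25 lower in DNTCF4 against Vector. It gave 26 to 34 and 31 to 35 lower with EZH2 and SET against DNTCF4, 0 to 1 lower between EZH2 and SET (0 without DNTCF4_EZH2 replicate 1 or 3 or DNTCF4_SET replicate 2) and 0 to 1 higher in DNTCF4_EZH2 against Vector (0 without Vector replicate 1 or 2 or DNTCF4_EZH2 replicate 2 or 3). Without DNTCF4 replicate 1 and DNTCF4_EZH2 replicate 1 together, 31 members were lower with EZH2. Myc in DNTCF4 against Vector ran from -0.15 (without DNTCF4 replicate 2) to 0.0149 (without DNTCF4 replicate 1). The causes were not tested. Over all genes, EZH2 against SET gave 777 calls, but 2177 with only the 6 libraries and 359 to 439 with 1 library left out, and 58.0% of the calls were higher, against 47.6% with DESeq2 and 46.4% with limma. The replicate numbers showed no pairing of the samples, though with 3 libraries per group such a check cannot exclude it. Over 18 same-numbered pairs the correlation of deviations ran from -0.0906 to 0.151, and 3 of 12 libraries correlated best with their own number. With the number as a replicate block, 22 members were lower in DNTCF4 against Vector and 33 with each second construct against DNTCF4.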
